A study of Mus musculus with 10 samples.

Results

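The genes described here are 5 chemokine receptor genes linked to cells that arise from blood monocytes: Ccr1 (Entrez 12768), Ccr2 (12772), Ccrl2 (54199), Cx3cr1 (13051) and Cxcr4 (12767). They were taken by gene symbol from a table of 26173 genes, and all 5 were found. RNA sequencing was run on alveolar macrophages, which live in the airspaces of the lung, from C57BL/6 mice labelled female and 16 weeks old. In the conditional line the gene of the transcription repressor Bach2 was flanked by loxP sites, and Cre came from Cd4, whose promoter works in T cells, so the macrophages themselves need not have lost Bach2. That line gave a control group, for which the labels do not spell out the alleles, and 2 fractions from knockout mice. The first fraction had surface markers like those of controls (the normal-marker group) and the other had aberrant surface markers (the aberrant-marker group). Wild-type mice and mice with a germline knockout of Bach2 made up the other 2 groups. Each of the 5 groups had 2 samples. Whether mice were pooled, and which surface markers were stained, is not given in the sources used here.

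Chemokine receptors are membrane proteins that couple to inhibitory G proteins and steer cells along gradients of small secreted chemokines. Ccr2 is the receptor by which classical monocytes leave the bone marrow, and Cx3cr1 is high on non-classical monocytes and on many interstitial macrophages. Resident alveolar macrophages, which descend from fetal monocytes, normally hold little of either. Ccr1 is an inflammatory receptor of myeloid cells, Cxcr4 holds cells near sources of Cxcl12, and Ccrl2 is an atypical receptor that binds chemerin without the usual signal.

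The values are FPKM, fragments scaled to transcript length and library size, so levels of different genes are compared here per length. The low values fell on steps that put the depth at roughly 6.79 to 9.31 M fragments per sample. The 2 samples of a group correlated at 0.993 to 0.998 on the log2(FPKM + 1) scale, against 0.685 to 0.853 for samples of different groups. They were therefore counted as 2 runs of 1 library, differences between groups have no replicate check or p-value. Calls followed a rule of size. It asked for a gap of 4-fold or more on the log2(FPKM + 1) scale between library means and in each pairing of single runs, and for a floor of 20 FPKM in the higher of the libraries. Ranges after a log2 difference are those over the pairings of runs and cover sequencing error only. Bach2 itself was at 0.0571 FPKM or less in every library, which is too low to check the genotype labels. The wild-type and germline knockout libraries held the Y-linked transcript Eif2s3y (60.8 and 39.9 FPKM), against their label as female. Their comparison with the conditional line also crosses mouse lines and sex-linked genes.

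Ccr1, a receptor for Ccl3, Ccl5, Ccl6 and Ccl9 among others, was the highest of the 5 genes in every library. The conditional control held 52.9 and 52.8 FPKM in its runs, the normal-marker library 109 and 105, the aberrant-marker library 50.5 and 52.5, the wild type 37.8 and 42.4, and the germline knockout 72.5 and 74.6. The runs of each library stood apart from those of its neighbours in this order, but the means of the conditional control (52.9) and aberrant-marker library (51.5) were close. Ccr1 was not called in any of the 5 comparisons. Its log2 difference was 1.00 (0.97 to 1.03) between the normal-marker library and the conditional control, 0.86 (0.76 to 0.96) between the germline knockout and the wild type, and -0.04 (-0.07 to -0.01) between the aberrant-marker library and the conditional control. Of 11336 genes compared, 34.1%, 50.3% and 94.3% differed by at least as much in those comparisons, so the Ccr1 differences were of ordinary size. In each library Ccr1 was above 80.5% or more of the genes compared. In short stretches of 36 bases, 0.429% of its transcript also occurred in another gene, Ccr3, which was listed at 0 in all 5 libraries.

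The 250 bases before the Ccr1 start site are shown because Ccr1 was the only one of the 5 receptor genes above 20 FPKM in every library. They are from RefSeq (build GRCm38.p6, minus strand, chr9:123968693-123968942), with a match to the core letters bound by the myeloid factor PU.1 (GAGGAA, either strand) in capitals.
Ccr1: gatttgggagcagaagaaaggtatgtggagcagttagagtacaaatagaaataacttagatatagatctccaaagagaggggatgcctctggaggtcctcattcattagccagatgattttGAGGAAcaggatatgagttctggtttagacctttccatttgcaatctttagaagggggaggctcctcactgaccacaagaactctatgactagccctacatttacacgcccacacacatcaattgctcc
The match began 129 bases upstream of the start site. A match to these letters was found in 28.3% of 32851 windows of RefSeq genes, which run from 250 bases before to 50 after the start.

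**Figure D1:**
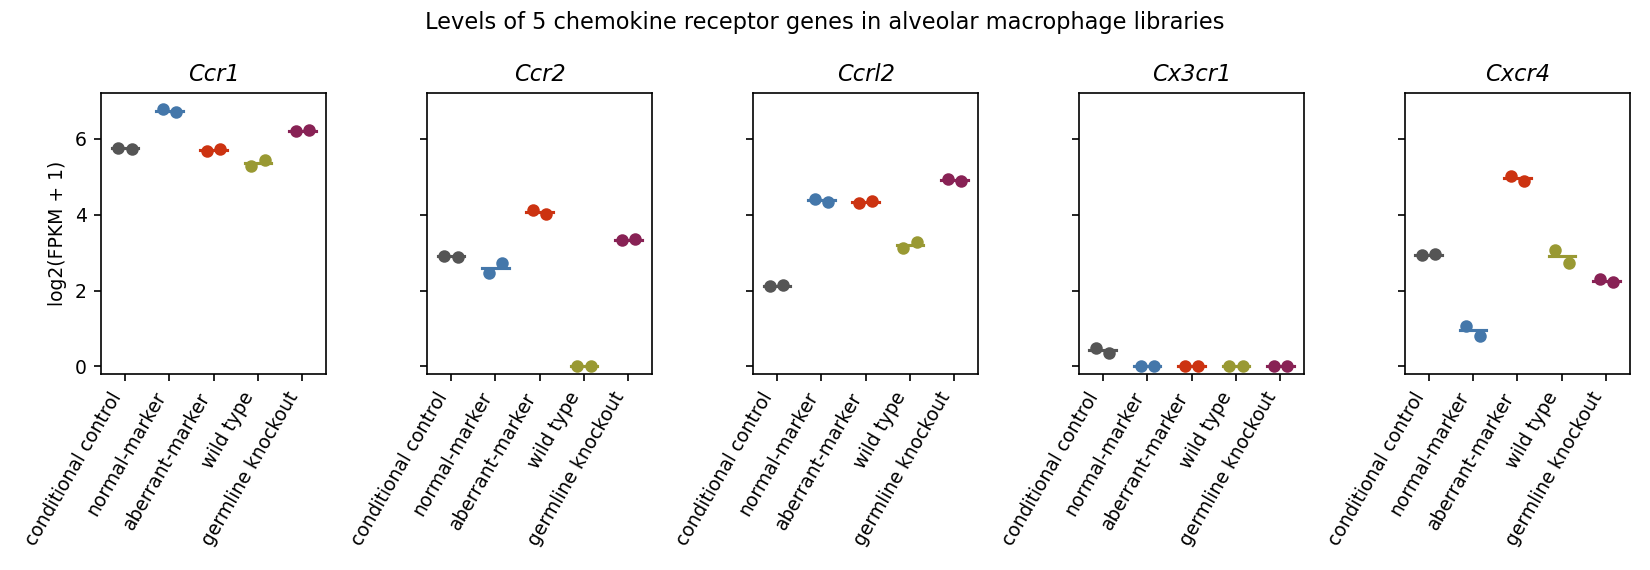
Levels of the 5 receptor genes as log2(FPKM + 1) on the vertical axis, with 1 panel per gene and the 5 libraries along the horizontal axis. Points are the 2 sequencing runs of a library and the short bar is log2 of their mean FPKM plus 1. Ccr1 is high in all libraries, Ccr2 is listed at 0 in the wild type, Cx3cr1 is near 0 throughout, and Cxcr4 spans the widest range between the 2 fractions of the conditional knockout.

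Ccr2, the receptor for Ccl2, Ccl7 and Ccl12, was low where it was found and listed at 0 in the wild type. Its runs gave 6.56 and 6.39 FPKM in the conditional control, 4.54 and 5.67 in the normal-marker library, 16.4 and 15.4 in the aberrant-marker library and 9.07 and 9.23 in the germline knockout. Both runs of the wild type were listed at 0. The aberrant-marker library was thus highest, the germline knockout next, and the runs of no 2 libraries overlapped. The aberrant-marker library exceeded the conditional control by 1.18 log2 units (1.12 to 1.24), a difference reached by 44.2% of the genes compared, and exceeded the normal-marker library by 1.47 (1.30 to 1.65). Neither passed the 4-fold rule, and no library reached the floor of 20 FPKM.

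For the germline knockout no fold is given, because its comparison library was listed at 0. A value of 0 in 1 library was found for other genes at this level too. Of 725 genes that lay at 4 to 20 FPKM in each of the other 4 libraries, 26 (3.59%) were listed at 0 in both wild-type runs, and the share in the other libraries was 0.313% to 3.95%. At 20 to 200 FPKM the wild-type share was 0.185%. The labels give an input of 100 pg of RNA per sample and 18 cycles of PCR. Whether Ccr2 was absent from the wild-type cells or lost at that input was not tested. The band of 4 to 20 FPKM was chosen after the Ccr2 values had been seen.

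The Ccr2 total is the sum of a curated and a predicted RefSeq transcript. The curated transcript held 81.9% to 85.5% of it in the 4 libraries with a value. Of the 36-base stretches of the Ccr2 transcript, 5.50% also occurred in transcripts of other genes. Reads in the shared stretches were divided between genes by the authors' software, and how much of the Ccr2 order this sets was not tested.

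Cx3cr1, the receptor for fractalkine (Cx3cl1), was all but absent. The conditional control held 0.393 and 0.287 FPKM, about 13 and 9.03 fragments at the estimated depth. In the other 4 libraries both runs were listed at 0 or at far under 1 fragment, which was worth about 0.0286 to 0.0392 FPKM there. Cx3cr1 did not pass the filter of 1 FPKM in 2 columns, so that 4 of the 5 receptor genes entered the comparisons. Its ligand gene Cx3cl1 had 14.1 FPKM in the conditional control, 20.5 in the wild type and 21.5 and 19.9 in the normal-marker and aberrant-marker libraries, and was listed at 0 in the germline knockout. That made Cx3cl1 the only ligand gene called lower in the germline knockout than in the wild type.

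Cxcr4, the receptor for Cxcl12, differed most between the 2 fractions of the conditional knockout. It was at 31.5 and 28.7 FPKM in the aberrant-marker library and at 1.104 and 0.760 FPKM in the normal-marker library. The conditional control held 6.69 and 6.77 FPKM, the wild type 7.48 and 5.58, and the germline knockout 3.95 and 3.67. The aberrant-marker library was highest, the conditional control and wild type overlapped, and the normal-marker library was lowest. Between the fractions the log2 difference was 4.01 (3.82 to 4.21), and Cxcr4 was called higher in the aberrant-marker library. It was the only call among the 5 receptor genes in this comparison, in which 4.02% of all genes compared were called higher, 3.26% lower and 7.28% in either direction. A difference as large or larger in either direction was found for 3.56% of genes.

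Against the conditional control the 2 fractions lay on opposite sides of it. The aberrant-marker library was 2.01 log2 units (1.93 to 2.08) above it while the normal-marker library differed from it by -2.0 (-2.14 to -1.87), both at the edge of the 4-fold rule. Neither was called, as some pairings fell short, and 6.73 FPKM in the control was also under the floor for the second. Both comparisons use the same control library. With a pseudocount of 0.1 FPKM in place of 1, Cxcr4 passed the rule in the aberrant-marker library. In the germline knockout its log2 difference from the wild type was -0.65 (-0.86 to -0.41), and between the wild type and conditional control it was -0.04 (-0.24 to 0.14). The ligand Cxcl12 was listed at 0 in all 5 libraries.

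The bases before the Cxcr4 start site are shown because Cxcr4 was the one receptor gene called (RefSeq, GRCm38.p6, minus strand, chr1:128592300-128592549). Capitals mark matches to the GC box (GGGCGG, either strand) and to the TATA box (TATAAA, either strand).
Cxcr4: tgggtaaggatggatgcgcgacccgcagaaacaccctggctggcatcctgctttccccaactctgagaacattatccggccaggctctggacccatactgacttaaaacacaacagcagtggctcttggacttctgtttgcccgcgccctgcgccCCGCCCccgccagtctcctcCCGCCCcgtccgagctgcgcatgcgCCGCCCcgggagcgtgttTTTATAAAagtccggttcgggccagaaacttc
There were 3 GC box matches, which began 95, 75 and 50 bases upstream of the start. The TATA matches, 1 on each strand, overlapped and began 32 and 30 bases upstream. GC box letters were found in 35.7% and TATA letters in 13.6% of all windows. The stretch holds 61.2% G and C, against a median of 52.4% over all windows.

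Ccrl2 was the receptor gene that was higher in all 3 knockout libraries than in both control libraries. The conditional control held 3.32 and 3.47 FPKM, the wild type 7.66 and 8.71, the aberrant-marker library 18.7 and 19.7, the normal-marker library 20.6 and 19.3, and the germline knockout 29.7 and 28.7. No run of a knockout library overlapped a run of a control library, while the 2 fractions of the conditional knockout overlapped each other. The log2 difference from the conditional control was 2.20 (2.14 to 2.26) in the aberrant-marker library and 2.25 (2.19 to 2.32) in the normal-marker library. Every pairing was past 4-fold, but the means of 19.2 and 19.9 FPKM stood just under the floor of 20, so Ccrl2 was not called. With a floor of 5 FPKM it passed in both comparisons, as did 9.68% and 4.32% of all genes in the upward direction. The germline knockout exceeded the wild type by 1.72 (1.61 to 1.83), short of 4-fold.

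The wild type itself exceeded the conditional control by 1.06 (0.95 to 1.17), so the size of each Ccrl2 difference depended on the control used. Against the wild type, the aberrant-marker and normal-marker libraries differed by 1.14 and 1.19 log2 units. At least as large a difference from the conditional control was found for 20.9% of genes in the aberrant-marker library and for 10.3% in the normal-marker library.

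The table lists 3 RefSeq transcripts of Ccrl2, of which 1 begins at an upstream first exon and the other 2 share a downstream start region. The upstream-start transcript gave 0.841 and 0.852 FPKM for the conditional control, 3.30 and 4.54 in the normal-marker, 2.27 and 3.39 in the aberrant-marker, 4.15 and 4.00 in the wild-type and 3.87 and 3.39 in the germline knockout library. Outside the conditional control all runs thus lay between 2.27 and 4.54 FPKM, with the wild type inside the span of the normal-marker runs. The chief downstream transcript spread further. Its mean was 2.50 FPKM in the conditional control and 4.08 in the wild type, against 21.8 in the germline knockout and 16.0 and 13.8 in the normal-marker and aberrant-marker fractions. The upstream start accordingly made up 49.8% of Ccrl2 in the wild type, 24.9% in the conditional control and 12.4% to 19.7% in the 3 knockout libraries. The transcripts share most of their length, and their values are estimates of the authors' software. The minor downstream transcript differed between the runs of the aberrant-marker library, at 3.81 and 1.32 FPKM. No other gene shared a 36-base stretch with either start form.

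The 250 bases before the upstream Ccrl2 start are given because that start was measured apart from the downstream one (RefSeq, GRCm38.p6, minus strand, chr9:111057519-111057768). Capitals mark a GC box match and 2 matches to letters bound by NF-kB type factors (GGGAA, any 3 bases, then CC, either strand).
Ccrl2: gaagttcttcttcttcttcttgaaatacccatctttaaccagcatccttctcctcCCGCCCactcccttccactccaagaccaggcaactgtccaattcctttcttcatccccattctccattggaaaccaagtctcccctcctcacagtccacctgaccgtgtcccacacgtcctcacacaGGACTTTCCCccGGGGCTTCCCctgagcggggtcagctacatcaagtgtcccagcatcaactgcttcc
The NF-kB type matches began 68 and 56 bases upstream of the start, and 5.78% of all windows held such a match. The GC box match began 195 bases upstream. The core letters bound by Bach and AP-1 factors (TGANTCA, either strand) were found in none of the 7 windows of the 5 receptor genes and in 7.81% of all windows. Matches of letters do not show that a factor binds, and no match speaks only for these windows. The motifs were chosen after the sequences had been seen.

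**Figure D2:**
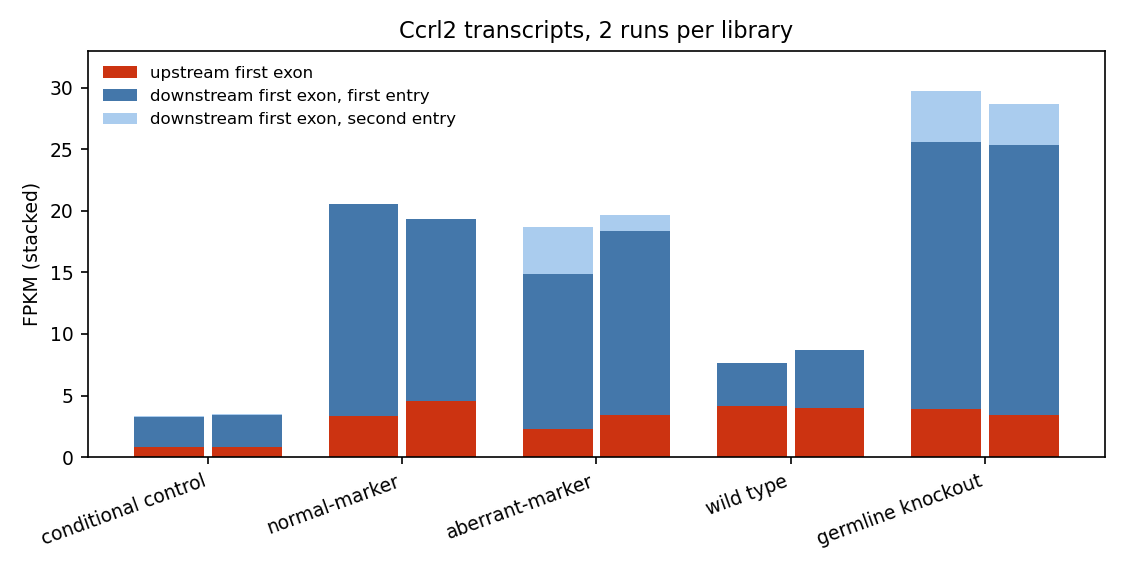
Stacked FPKM of the 3 RefSeq transcripts of Ccrl2 (vertical axis), with 1 bar for each of the 2 runs of every library along the horizontal axis. The upstream-start part has a mean of 0.847 to 4.07 FPKM, while the chief downstream transcript has means of 13.8 to 21.8 FPKM in the knockout libraries and 2.50 and 4.08 FPKM in the controls.

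Counted together, 0 of the 5 receptor genes were called in the aberrant-marker library against the conditional control, where 4.09% of all genes were called higher, 3.76% lower and 7.85% in either direction. The normal-marker library also had 0 of 5, beside 0.935% of genes higher, 0.838% lower and 1.77% in all. The germline knockout against the wild type had 0 of 5, beside 2.73% higher, 3.36% lower and 6.10% in all. Between the control libraries there were 0 of 5, beside 0.935% of genes higher in the wild type, 1.17% lower and 2.11% in all. With the wild type as the control, 0 of 5 were called in either fraction of the conditional knockout, beside 8.66% of genes in the aberrant-marker and 2.81% in the normal-marker library. Against such shares a count of 0 among 4 genes compared is no result about the receptors. With a floor of 5 FPKM, Ccr2 passed the rule as higher in the germline knockout than in the wild type, as did 8.06% of genes, and as lower in the wild type than in the conditional control, as did 6.30%. Both rest on the value of 0 in the wild type. With a 2-fold threshold, Cxcr4 passed in the aberrant-marker library against the conditional control, as did 8.60% of genes in that direction, and Ccrl2 in the germline knockout, as did 6.13%. The 4 genes did not follow 1 pattern. After each gene's mean was subtracted, their log2(FPKM + 1) profiles over the 5 libraries differed by a root mean square of 0.84 (Ccr1 and Ccrl2, the most alike) to 1.74 (Ccrl2 and Cxcr4).

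**Figure D3:**
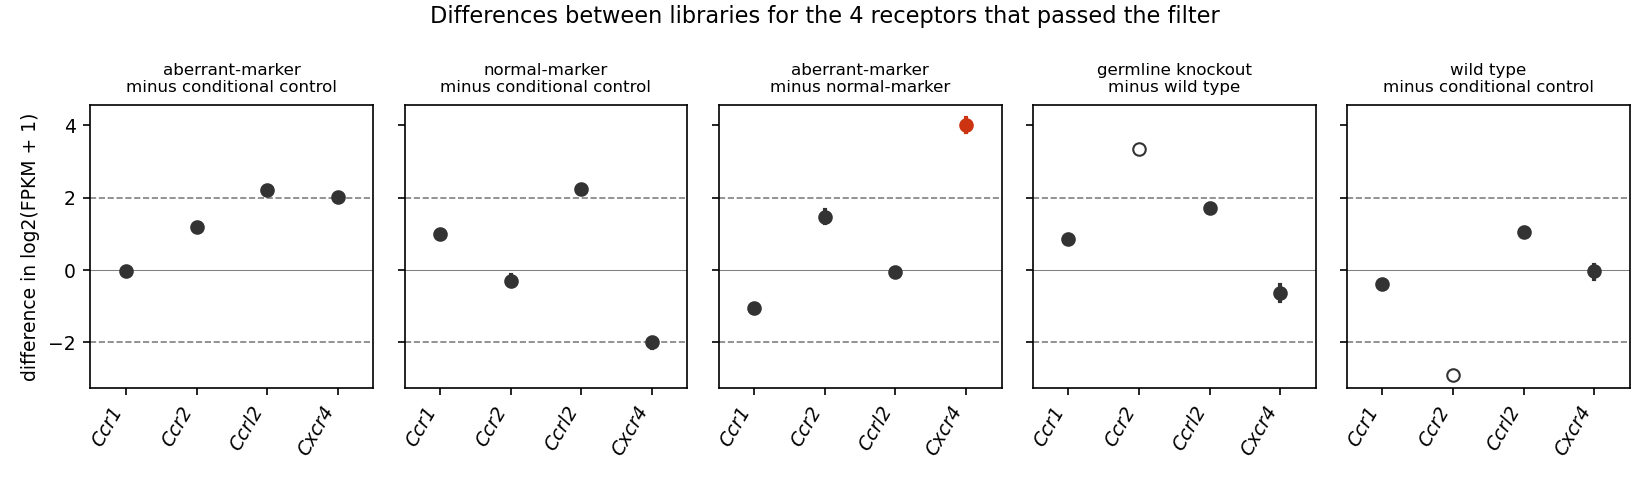
Differences in log2(FPKM + 1) between libraries for the 4 receptor genes that passed the filter, with 1 panel per comparison. Points are differences of means, bars the range over pairings of runs, dashed lines the 4-fold threshold, and red marks a called gene. Open points have a library listed at 0, so their height depends on the pseudocount. Cxcr4 between the 2 fractions of the conditional knockout (4.01) is the only call.

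Ratios between receptor genes of 1 library do not depend on how libraries are scaled. Ccr1 exceeded Ccr2 by 8.16 times in the conditional control and 8.04 times in the germline knockout, by 20.9 times in the normal-marker library and by 3.24 times in the aberrant-marker library. The run ranges of these ratios (8.07 to 8.25, 7.99 to 8.08, 18.4 to 23.9 and 3.08 to 3.41) overlapped between the conditional control and germline knockout alone. The level of Cxcr4 was 0.585 of that of Ccr1 in the aberrant-marker library and 0.00874 of it in the normal-marker library, with 0.0518 to 0.163 in the other 3. Ccrl2 was 0.373 of Ccr1 in the aberrant-marker library and 0.397 in the germline knockout, against 0.0642 in conditional controls, 0.187 in normal-marker cells and 0.204 in the wild type.

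Among all 25 chemokine receptor genes of the table, Ccr1 took 61.6% of the summed FPKM in conditional controls, 65.2% in the wild type, 57.8% in the normal-marker library and 33.4% in the germline knockout. In the aberrant-marker library it took 2.95%, and Ccr7, which guides dendritic cells to lymph nodes, reached 1564 FPKM and 89.4% of the sum. Ccr1 itself was at 51.5 FPKM there and ranked second. Of the other 20 chemokine receptors, 9 were listed at 0 throughout. In the aberrant-marker library Ccr7 and Cxcr6 (22.3 FPKM, listed at 0 elsewhere) were among those called higher than in the conditional control, and 0 were called lower. In the germline knockout Ccr7 (71.6 FPKM) was among those called higher than in the wild type, and 0 were lower. Cxcr1 was called lower in the aberrant-marker library, where it was listed at 0, than in the normal-marker library (40.7 FPKM). The normal-marker library had 0 calls among these 20 against the conditional control. Of the 20, 10 were compared. Over all genes compared, 3.76% were called lower in the aberrant-marker library and 3.36% in the germline knockout. In the normal-marker library 1.77% were called in either direction. Genes that are high in a knockout library alone passed the filter through it, so no median is given.

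Ligand genes of the 5 receptors were read in the same libraries. The list of 14 also holds Cd74, which is a receptor for the ligand Mif and not itself a ligand of the 5 receptors. Of the 14, 12 were compared. In the aberrant-marker library 4 were called higher than in the conditional control and 0 lower, beside 4.09% and 3.76% of all genes compared. The 4 were Ccl5 (516 FPKM against 0.498), Ccl2 (75.5 against 0.0755), Ccl7 (69.8 FPKM, far under 1 fragment in the control) and Ccl9 (198 against 37.1). In the germline knockout 8 were called higher than in the wild type and 1 lower, beside 2.73% and 3.36%. The 4 largest were Ccl2 (243 FPKM against 0.0824), Ccl7 (136 against 0.0285), Ccl3 (162 against 0.389) and Ccl5 (88.2 FPKM, far under 1 fragment in the wild type). Against the conditional control the normal-marker library had 0 calls among ligands, beside 1.77% of all genes. The wild type had 2 calls, Ccl3 and Ccl9, both lower, beside 1.17% of all genes, so controls differed in these ligands. Ccl6 was by far the highest ligand of Ccr1, with 3107 to 9210 FPKM. The germline knockout (9210) and normal-marker library (7593) were first in its order and the aberrant-marker library (3107) last. Rarres2, the gene of the Ccrl2 ligand chemerin, was listed at 0 in all libraries.

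Genes that carry the signal of chemokine receptors were present in every library, with 32 to 34 of 35 at 1 FPKM or more. Of 34 compared, 3 were called higher and 4 lower in the aberrant-marker library than in the conditional control, beside 4.09% and 3.76% of all genes. The median log2 difference was -0.09 against 0 over all genes. The higher ones were Rgs1 (1034 FPKM against 0.0388) and Rgs10 (200 against 20.9), which shorten G protein signals, and the kinase gene Jak2 (157 against 12.9). The lower ones included the Src-family kinase gene Fgr (5.94 against 125), the phospholipase gene Plcb2 (1.95 against 23.4) and the focal adhesion kinase relative Ptk2b (10.2 against 46.5). The germline knockout had 2 higher and 3 lower than the wild type (median -0.58), beside 2.73% and 3.36% of all genes. Rgs10 (50.3 against 7.48) and Jak2 (45.9 against 7.39) were higher. Ptk2b (4.92 against 61.5) and Rgs2 (4.27 against 27.0) were among the lower ones. Rgs1 in the germline knockout was at 34.7 FPKM, against 18.1 in the wild type. The normal-marker library had 0 calls (median -0.16), beside 1.77% of all genes. Gnai2, the main inhibitory G protein subunit of leukocytes, was at 265 to 661 FPKM in the 5 libraries.

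Some defining genes of classical monocytes were not found in any library. Ly6c2, Plac8 and Vcan were listed at 0 in all 5 libraries, among 15 such genes. Of the others, Ms4a4c (22.3 FPKM, listed at 0 in the control), Ifitm3 (96.0 against 14.02) and S100a4 (80.7 against 15.4) were called higher in the aberrant-marker library than in the conditional control, and Lyz2 (7766 against 34794) lower. In the germline knockout Ifitm3 (87.0 against 0.127) and S100a6 (184 against 9.36) were called higher than in the wild type, and 0 lower. Over all genes compared, 4.09% were called higher and 3.76% lower in the first comparison, and 2.73% and 3.36% in the second. Of the 15 list genes, 11 were compared. S100a6 was also called between the control libraries, at 9.36 FPKM in the wild type and 87.2 in the conditional control. That the receptors mark monocyte-derived cells is thus background knowledge, and these monocyte transcripts were not found beside them. Of 11 genes of non-classical monocytes, 0 were called higher and 1, Treml4 (listed at 0 against 41.5), lower in the aberrant-marker library than in the conditional control. The germline knockout had 0 higher and 2 lower than the wild type, Treml4 (listed at 0 against 29.1) and Itgal (13.6 against 75.0). Of these 11 genes, 10 were compared, and the shares over all genes are those given above.

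Macrophages that come from monocytes or live in the lung interstitium have their own genes, of which 21 were in the table. Of the 21, 16 were compared. The aberrant-marker library had 7 higher and 1 lower than the conditional control, beside 4.09% and 3.76% of all genes compared. The normal-marker library had 2 higher and 0 lower, beside 0.935% and 0.838%. The germline knockout had 10 higher and 0 lower than the wild type, beside 2.73% and 3.36%. Some of the 21 genes, such as C1qa, passed the filter through knockout libraries alone. Cd163, Lyve1 and Folr2, markers of interstitial macrophages, were listed at 0 in all 5.

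Markers of other cells moved with Cxcr4 and Ccr2 in the aberrant-marker library. It held 15 of 20 T cell genes at 1 FPKM or more, the conditional control, normal-marker and germline knockout libraries 2 each and the wild type 1. Summed FPKM of the 19 genes other than Cd2 was 315 to 316 in its runs, against 3.03 to 3.30 in the conditional control, 4.76 to 5.80 for normal markers, 0.606 to 0.640 in the wild type and 41.6 to 41.9 in the germline knockout. The value of the germline knockout was nearly all Il7r. Cd2 was left out after its values were seen, since the control libraries held 330 FPKM (conditional control) and 455 FPKM (wild type) of it. From a list of 17 dendritic cell genes, 14 reached 1 FPKM in the aberrant-marker library and 4 to 8 in the others, with summed levels of 7386 to 7398 FPKM against 99.3 to 489. T cells and dendritic cells both can express Cxcr4 and Ccr2, and the part of these cells in the 2 values was not tested. In bulk RNA, fewer cells of a type and less RNA per cell cannot be told apart.

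Of 8 B cell genes, 6 (Cd79a, Cd79b and Ms4a1 among them) were listed at 0 throughout. Ly6g, Retnlg and Camp were at 0 among 11 neutrophil genes. Their sum was lowest in the aberrant-marker library (11.2 to 20.7 FPKM) and 41.8 to 83.5 FPKM in the other 4. In the germline knockout S100a8 (43.7 FPKM against 4.83) was called higher than in the wild type and Mmp8 (0.782 against 27.0) lower. Mmp8 was also called lower in the aberrant-marker library than in the conditional control (1.54 against 43.7). Natural killer and innate lymphoid genes summed to 32.9 to 33.1 FPKM in the aberrant-marker library and to 1.62 FPKM or less elsewhere. The sum in the aberrant-marker library came from Nkg7 (15.9 FPKM), Gata3 (9.60), Klre1 (4.48) and Il1rl1 (3.01). Of the 10 genes, 5 (Gzma, Gzmb, Prf1, Ncr1 and Eomes) were listed at 0 throughout. The sum of the eosinophil, basophil and mast cell genes was 9.92 FPKM or less in each run, and that of epithelial, endothelial and stromal genes was 76.3 to 186 FPKM. The epithelial gene Epcam, chosen after its values were seen, was at 126 FPKM in the conditional control and 147 in the wild type. This is above Ccr1 there. Epcam was at 31.9 FPKM for normal markers, 26.0 for aberrant markers and 0.0360 in the germline knockout. Of the 10 genes of its list, 6 were listed at 0 throughout, with Sftpc, Sftpa1 and Sftpb among them. Cdh1 of the same list went another way. It was at 69.2 FPKM in the germline knockout and 17.0 in the wild type, with 19.6 in the conditional control, 43.4 for normal and 17.8 for aberrant markers. Scgb1a1 of the list was at 39.7 FPKM in the conditional control, 30.1 for normal and 31.8 for aberrant markers. In the wild type it was at 6.56 FPKM, called lower than in the conditional control, and in the germline knockout at 5.22. All 23 alveolar macrophage genes in the table were detected in some library. Their sum was lowest in the aberrant-marker library (11431 to 11596 FPKM) and 24493 to 53021 FPKM in the other 4. In the germline knockout Chil3 alone gave 46574 FPKM, against 9278 in the wild type. Of the 23, 12 were called lower and 2 higher there than in the wild type, beside 3.36% and 2.73% of all genes. The aberrant-marker library had 15 lower and 1 higher than the conditional control, beside 3.76% and 4.09%. The normal-marker library had 1 lower and 0 higher against the same control, beside 0.838% and 0.935%.

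Genes with the most similar profile were found by the root mean square difference of mean-subtracted log2(FPKM + 1) over the 5 libraries. The candidates had at least 20 FPKM in 1 library. For Ccr1 they were Cnih1 (0.047), Itfg3 (0.068) and Phlda3 (0.083), and 32 of 5341 candidates lay within 0.25. Ccr2 was closest to Rpl23 (0.17), Anapc15 (0.29) and Mex3c (0.29), which were likewise low in the wild type, at 4.12, 2.28 and 0.160 FPKM. Nearest to Ccrl2 was Trem2 (0.20), a lipid-sensing receptor of macrophages, with 50.6 FPKM in conditional controls, 70.9 in the wild type, 190 and 181 in the normal-marker and aberrant-marker fractions and 252 in the germline knockout. Itgb1bp1 (0.25) and Lonp1 (0.27) came next, and Trem2 was the only candidate within 0.25. Cxcr4 had none within 0.25, and its nearest were Kdm2b (0.32), Napsa (0.34) and Eri1 (0.36). These likenesses over 5 libraries are a description, with no test.

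Ccr1, Ccr1l1, Ccr3 and Ccr2 follow one another on chromosome 9 in the RefSeq annotation of GRCm38.p6, but their levels differed widely. Ccr1l1 and Ccr3, which lie between Ccr1 and Ccr2, were listed at 0 in all 5 libraries. Cxcr6 and Xcr1 lie on the other side of Ccr1, and Xcr1 was at 2.09 FPKM in the conditional control and at 0.0483 FPKM or less in the others. Beside Cx3cr1 on the same chromosome, Ccr8 was at 5.25 FPKM in the aberrant-marker library and listed at 0 elsewhere. Ccrl2 has Ltf and Lrrfip2 as neighbours, of which Ltf was listed at 0 in every library and Lrrfip2 was at 14.99 to 54.8 FPKM, highest in the wild type. Next to Cxcr4 on chromosome 1, Dars was at 23.3 FPKM in the aberrant-marker library, lower than in the other 4 (25.8 to 53.4), whereas Cxcr4 was highest there.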

How the data were processed

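FPKM per RefSeq transcript (45913 transcripts, 10 samples) were made and deposited by the authors. Bowtie 1.1.2 and eXpress 1.5.1 are named in the submitters' processing notes with no role, and the genome build is not given in the sources used here. Column sums were 625660 to 668491 and were not rescaled. The transcripts of an Entrez gene were added up, and the 11336 genes that reached 1 FPKM in 2 or more columns were compared on log2(FPKM + 1) as described in the report. All 10 columns matched a sample title. The members, gene lists and rules were chosen with earlier results of these data known. The size rule, which needs no replicates, was checked on simulated data with planted changes and counting noise alone. Those data hold no variation between libraries, so the check cannot tell how often such variation leads to a call. Genes named are all receptors of the set, up to 4 called genes of a list by size, the 3 nearest profiles and 2 coding neighbours on each side. Other genes are named as markers or paralogues, or were chosen after their values were seen. Depth was estimated from the steps of low values of single-transcript genes with GENCODE M21 lengths and is approximate. Shared 36-base stretches were counted against all GENCODE M21 transcripts. Alternatives were another pseudocount (0.1), floor (5 FPKM or none), threshold (2-fold), scaling, filter, transcript choice and control, and leaving out each run. Python 3.11.15, pandas 2.3.3 and numpy 2.4.6 were used. Cxcr3, Apoe and some other list genes are not analysed here, and some measured genes are not reported here.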

Additional observations from a re-analysis of the deposited data

Results flagged for a closer look

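In 3 receptor genes a conditional knockout fraction and the germline knockout lay on opposite sides of their own controls in every pairing of runs. The difference between the effects was not tested, since each group is 1 library. For Cxcr4 the log2 difference was 2.01 in the aberrant-marker library against the conditional control and -0.65 in the germline knockout against the wild type. For Ccr1 the values were -0.037 and 0.86. The first of these is nearly 0 and turned to 0.01 with median-of-ratios scaling and to 0.35 with the wild type as the control. For Ccr2 the normal-marker library lay below the conditional control by -0.29 on the log2 scale, while the germline knockout was at 9.15 FPKM and the wild type was listed at 0. Set against the wild type, the normal-marker library (5.10 FPKM) lies above it too. In each of the 3 genes the other fraction went the same way as the germline knockout. The log2 differences from the conditional control were -2.0 for Cxcr4 and 1.00 for Ccr1 in the normal-marker library, and 1.18 for Ccr2 in the aberrant-marker library.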

How the results depend on the processing

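The call of Cxcr4 between the aberrant-marker and normal-marker libraries was made under all alternatives run, with 1 of 5 receptor genes called each time. The other comparisons had 0 of 5 in the analysis as reported, and single genes crossed the rule under some settings. In the aberrant-marker library against the conditional control, 1 gene was called with a pseudocount of 0.1 (Cxcr4), a floor of 5 FPKM or no floor (Ccrl2), a 2-fold threshold (Cxcr4) and columns scaled to equal sums (Ccrl2). In the normal-marker library 1 gene, Ccrl2, was called with a floor of 5 FPKM, no floor and columns scaled to equal sums. In the germline knockout against the wild type, 1 gene was called with a floor of 5 FPKM or no floor (Ccr2), a 2-fold threshold (Ccrl2) and the highest transcript (Ccrl2). The wild type against the conditional control had 1, Ccr2, with a floor of 5 FPKM or no floor. Leaving out single runs gave 0 to 1 called genes in the aberrant-marker comparison (1, Cxcr4, without sample 8) and 0 to 1 in the normal-marker comparison (1, Ccrl2, without sample 7). With the wild type as the control, 0 genes were called in either fraction. Of 248 single-gene values recomputed, 5 changed sign, none of them called. No paired analysis was possible because each group is 1 library. The sample titles do not tell which mice gave which fraction, so a pairing of the 2 conditional knockout fractions by mouse could not be used. A value of 0 in 1 library was found for 0.313% to 3.95% of genes at 4 to 20 FPKM. At 20 to 200 FPKM the share was 0 to 0.185%. Whether such values come from loss at this input was not tested. Low levels limit what can be said of Ccr2, Cxcr4, Cx3cr1 and Ccrl2, the last with control values of 3.40 and 8.19 FPKM.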
